A study of Mus musculus with 8 samples.

Results

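Transcripts of pyrimidine salvage and nucleoside transport were examined in acute myeloid leukaemia (AML) cells exposed in vivo to AG636, an inhibitor of dihydroorotate dehydrogenase (DHODH). The 10 genes were chosen by name, with earlier results of these data known. They included the equilibrative nucleoside transporters Slc29a1 and Slc29a2, the uridine-cytidine kinases Uck1 and Uck2, their relative Uckl1 and uridine phosphorylase Upp1. The others were the UMP/CMP kinase Cmpk1, deoxycytidine kinase Dck and the thymidine kinases Tk1 and Tk2. Each of the 10 matched a single row of the 54838 genes in the deposited table. All 8 samples were mouse AML cells of C57BL/6 background and RUNX1-RUNX1T1 genotype, grown in Ptprca recipient mice. In 4 samples the recipients had received Vehicle and in 4 AG636 at 100 mg/kg b.i.d. by oral gavage. The cells were collected after a day of treatment, per the legend of the study. The labels state that recipients were sublethally irradiated, while the methods of the study describe irradiation for its other leukaemias only. Ages and sexes of the mice were not given. Cells were sorted from bone marrow and spleen for cKit and for low or absent CD11b, and the tissue of each sample was not given. The legend counts fewer mice per group than there are samples, so whether each sample is a separate mouse is unknown. The p-values set the difference between groups against the spread between these samples, which may be technical.

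Cells obtain pyrimidine nucleotides either by building uridine monophosphate (UMP) from small precursors, a route that passes through DHODH, or by salvage of nucleosides from outside the cell or from RNA and DNA turnover. In salvage, equilibrative transporters let nucleosides cross the membrane, uridine-cytidine kinases phosphorylate uridine and cytidine, and UMP/CMP kinase adds the next phosphate, a step that the product of de novo synthesis also needs. Deoxycytidine kinase and the cytosolic and mitochondrial thymidine kinases perform the corresponding first step for deoxynucleosides. Uridine phosphorylase acts in the opposite direction and splits uridine to uracil. Supplying uridine bypasses a block of DHODH, which is why the salvage route is of interest beside such a drug.

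The libraries held 6120030 to 7162036 counts. They were made with a QuantSeq 3′ kit, which reads the 3′ end of each transcript, so that levels, given as CPM (counts relative to the library size scaled by TMM factors), were not divided by gene length. How well a 3′ end is captured differs between genes, and an order of levels between genes is therefore approximate. Of the sort markers, Kit lay at 155 to 177 CPM in Vehicle and 153 to 252 CPM in AG636. Itgam, which encodes CD11b, had at most 4 counts. Among other progenitor markers, Myb (388 to 503 and 453 to 717 CPM) and Gata2 (308 to 409 and 266 to 461 CPM) were high. Cd34 (2.43 to 12.6 and 4.05 to 35.6 CPM) and Meis1 (0.437 to 2.43 and 1.28 to 6.54 CPM) were low, and Flt3 had at most 5 counts. Among mature myeloid markers, Fcgr3 reached 97.3 CPM and S100a8 76.0 CPM. Vehicle sample 4 stood apart from the other Vehicle samples (chi-square per degree of freedom of counts 9.18 to 13.05, against 3.87 to 4.54 among the other 3), and AG636 samples differed more among themselves (14.2 to 25.4). AG636 sample 3 had Spearman correlations of 0.972 to 0.974 with Vehicle samples 1 to 3, and of 0.959 to 0.978 with the other AG636 samples. AG636 sample 2 was as far from its group, with 15.7 to 25.4 on the chi-square scale (17.3 to 25.4 for AG636 sample 3) and Spearman correlations of 0.959 to 0.980. Results are also given without Vehicle sample 4 and AG636 sample 3 together, and without each sample in turn where that changed a call.

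With Vehicle, Tk1 was the most abundant at 176 ± 8.67 CPM (SD, n = 4), followed by Uck2 at 146 ± 5.84 CPM and Slc29a1 at 134 ± 13.01 CPM. The ranges of Uck2 and Slc29a1 overlapped, so their order was not resolved, but the lowest Tk1 value lay above the highest Uck2 value. Cmpk1 at 63.2 ± 6.78 CPM and Uck1 at 51.7 ± 2.15 CPM came next, and their ranges only just separated. Uckl1 (36.3 ± 1.98 CPM), Dck (34.8 ± 5.32 CPM) and Tk2 (28.4 ± 3.10 CPM) had overlapping ranges between neighbours. Slc29a2 was barely detected, with 63 counts in the 4 Vehicle samples together (2.38 ± 0.385 CPM). Upp1 had 0 counts in all 8 samples, which at 3 counts allows at most 0.419 to 0.490 CPM per library (by library size alone, without TMM factors, and counting error only). Among AG636 samples Uckl1 was the fourth most abundant, ahead of Cmpk1 and Uck1, although the ranges of Uckl1 and Cmpk1 and those of Cmpk1 and Uck1 overlapped.

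**Figure D1:**
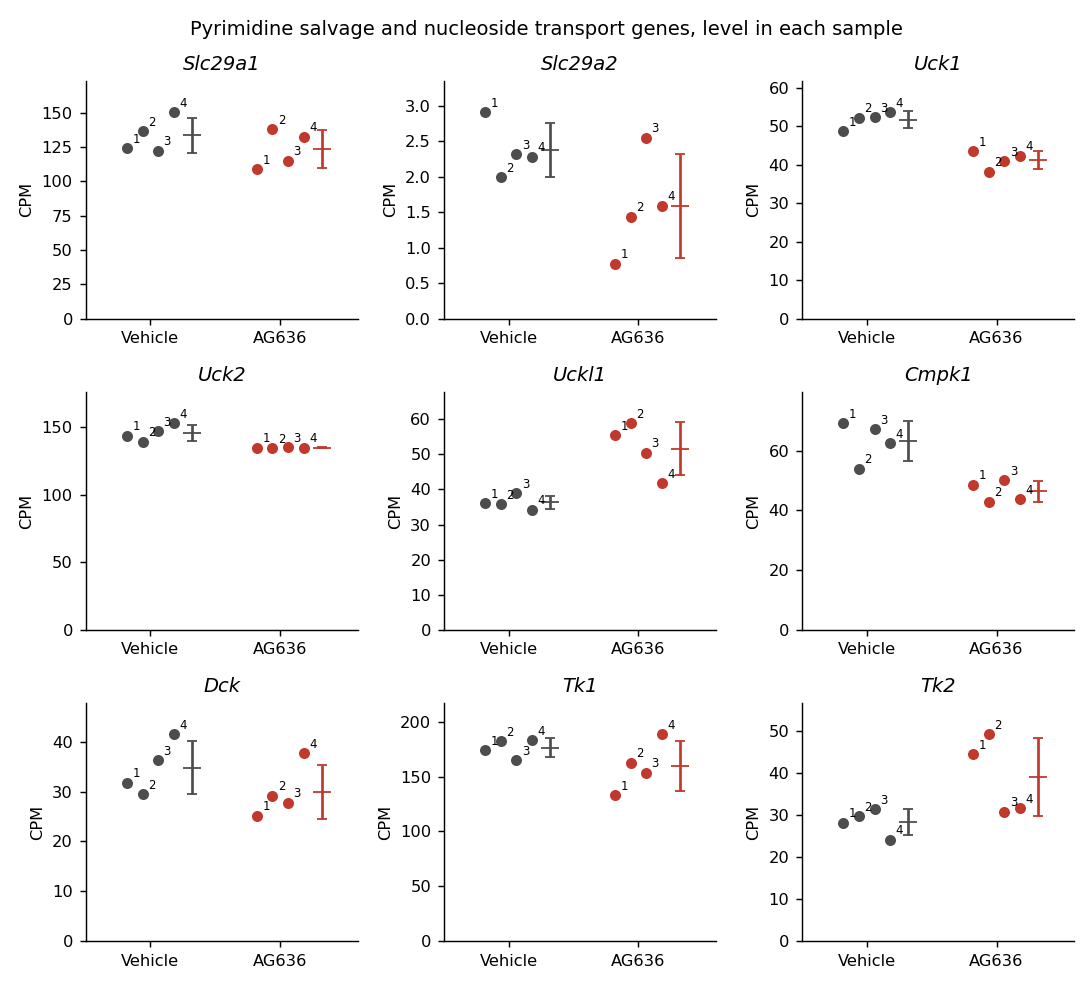
Level of each salvage or transport gene (vertical axes, CPM, starting at 0) in the 4 Vehicle and 4 AG636 samples. Points are samples with their replicate number, and the bar beside them is the mean ± SD. Cmpk1 and Uck1 lie lower and Uckl1 lies higher in every AG636 sample than in any Vehicle sample. Upp1, with 0 counts throughout, is not drawn.

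To determine whether inhibition of DHODH altered expression of the salvage route, AG636 was compared with Vehicle in a single limma-voom fit of all genes. Cmpk1 and Uck1 fell and Uckl1 rose, and no other salvage or transport gene passed the threshold of an adjusted p-value of 0.05. Of the 10 genes, 9 passed the filter on low counts and 3 of these 9 (33.3%) were called, against 14.0% of the 10911 genes tested. By direction, 2 were lower and 1 higher, against 8.49% and 5.47% of all tested genes. With library size alone in place of TMM factors these backgrounds became 5.23% lower and 8.41% higher, and Cmpk1 and Uckl1 but not Uck1 were called. The median log2 fold change of the 9 genes was −0.15, and that of all tested genes was −0.0056. By library size alone, Slc29a2 reached the filter level of 1.52 CPM in 4 Vehicle and 2 AG636 samples, and Upp1 in none.

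Cmpk1, whose product converts UMP and CMP to their diphosphates, had the smallest p-value of the group. It lay at 69.2, 53.9, 67.2 and 62.5 CPM in Vehicle samples 1 to 4. In AG636 samples 1 to 4 it lay at 48.5, 42.9, 50.1 and 43.8 CPM. Every AG636 sample was thus below every Vehicle sample, with Vehicle sample 2 the nearest. Group means were 63.2 ± 6.78 CPM with Vehicle and 46.3 ± 3.51 CPM with AG636 (SD, n = 4). In the limma fit Cmpk1 fell by 26.5%, or −0.45 on the log2 scale (SE 0.11, 95% interval −0.68 to −0.21, adjusted p = 0.0203). Leaving out Vehicle sample 1 or Vehicle sample 3 moved the adjusted p-value of limma to 0.0666 and 0.0691. With Vehicle sample 4 and AG636 sample 3 both left out the log2 fold change was −0.46 (adjusted p = 0.0376).

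Uck1, a kinase of uridine and cytidine, also fell. It lay at 48.7, 52.3, 52.3 and 53.7 CPM in Vehicle samples 1 to 4. It lay at 43.5, 38.1, 40.9 and 42.4 CPM in AG636 samples 1 to 4. The groups did not overlap, and the spread within each was close to that of counting alone, which for these counts would be about 2.80 CPM in Vehicle and 2.52 CPM in AG636. Group means were 51.7 ± 2.15 CPM with Vehicle and 41.2 ± 2.33 CPM with AG636 (SD, n = 4). In the limma fit Uck1 fell by 20.2%, or −0.33 on the log2 scale (SE 0.09, 95% interval −0.52 to −0.13, adjusted p = 0.0335). The call was lost with any 1 Vehicle sample left out (limma adjusted p from 0.0586 to 0.0935), without AG636 sample 2 (0.0660) or sample 3 (0.0508), with library size alone (0.101), with no filter (0.114), with a replicate block (0.0627) and without Vehicle sample 4 and AG636 sample 3 (0.111), each time with a negative log2 fold change between −0.36 and −0.26.

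Uckl1, a relative of the uridine-cytidine kinases, moved the other way. It lay at 36.1, 35.8, 39.0 and 34.2 CPM in Vehicle samples 1 to 4. It lay at 55.5, 58.9, 50.4 and 41.8 CPM in AG636 samples 1 to 4. AG636 sample 4 was nearest to Vehicle, yet still above all Vehicle samples. Group means were 36.3 ± 1.98 CPM with Vehicle and 51.7 ± 7.45 CPM with AG636 (SD, n = 4). In the limma fit Uckl1 rose by 41.0%, or 0.50 on the log2 scale (SE 0.12, 95% interval 0.23 to 0.76, adjusted p = 0.0218). Leaving out AG636 sample 1 gave an adjusted p of 0.0578 in limma, and leaving out Vehicle sample 1, 2, 3 or 4 gave 0.0638, 0.0619, 0.0531 and 0.0519, with log2 fold changes from 0.45 to 0.53. It stayed under the threshold without Vehicle sample 4 and AG636 sample 3 together (log2 fold change 0.50, adjusted p = 0.0488).

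**Figure D2:**
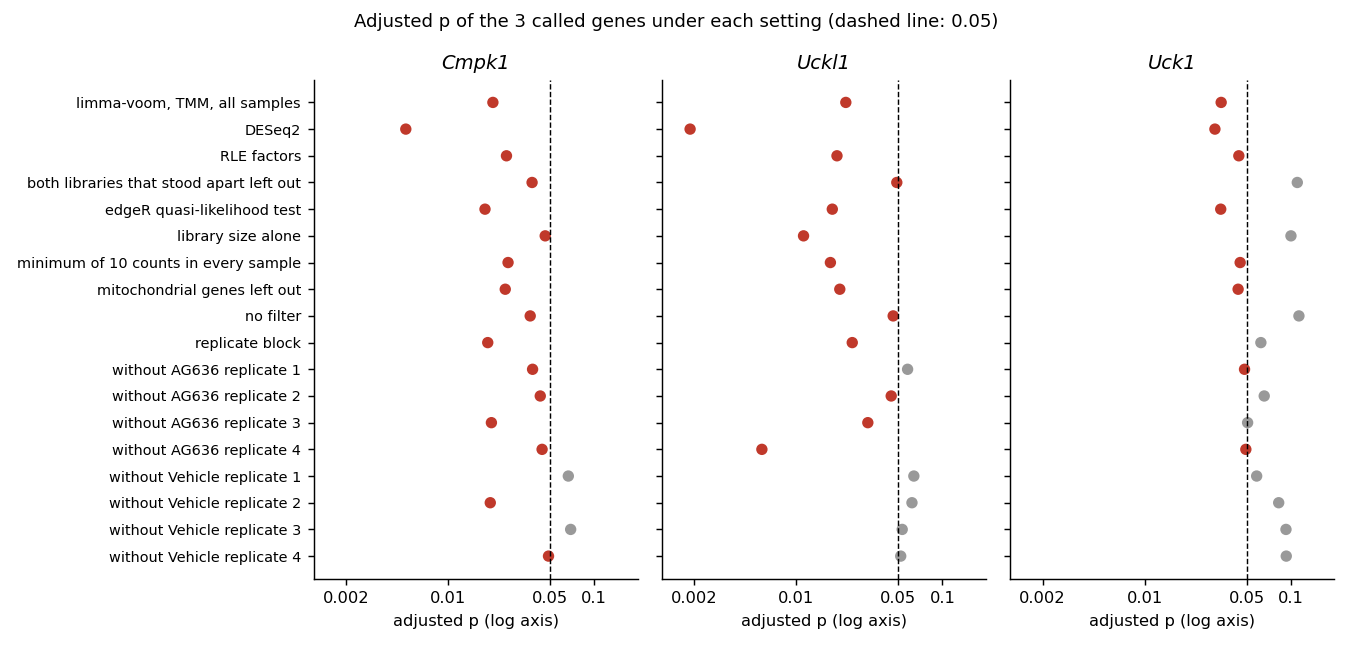
Adjusted p-value (horizontal axes, log scale) of Cmpk1, Uckl1 and Uck1 under limma-voom with all samples (top row) and under each of 17 other settings, with the threshold of 0.05 as a dashed line. Red points pass and grey points do not. Cmpk1 passes in 15, Uckl1 in 12 and Uck1 in 7 of the 17.

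Uck2, the more abundant kinase of uridine and cytidine, lay at 143, 139, 147 and 153 CPM in Vehicle samples 1 to 4 and at 134.5, 134.4, 135.2 and 134.6 CPM in AG636 samples 1 to 4. The groups did not overlap, but the means differed by little (146 ± 5.84 and 135 ± 0.339 CPM, SD, n = 4), with a log2 fold change of −0.11 (SE 0.07, 95% interval −0.27 to 0.05, limma adjusted p = 0.318). The AG636 samples differed by less than counting error, which for these counts would be about 4.57 CPM, and with library size alone the groups overlapped. Lack of overlap was found in 4 of the 9 tested salvage genes (Cmpk1, Uck1 and Uck2 lower, Uckl1 higher), against 22.2% of all tested genes, 12.9% lower and 9.35% higher.

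Of the deoxynucleoside kinases, Tk2, the mitochondrial enzyme, lay at 28.3, 29.8, 31.4 and 24.2 CPM in Vehicle samples 1 to 4. In AG636 samples 1 to 4 it lay at 44.6, 49.3, 30.8 and 31.7 CPM. AG636 samples 1 and 2 were high, whereas samples 3 and 4 were near the highest Vehicle value, and the groups overlapped through AG636 sample 3. The log2 fold change was 0.43 (SE 0.17, 95% interval 0.06 to 0.81) and did not pass the threshold (limma adjusted p = 0.111). It did not pass in any alternative either (adjusted p from 0.0522 to 0.230). With library size alone the groups did not overlap, with the lowest AG636 value at 31.5 and the highest Vehicle value at 30.8 CPM (limma adjusted p = 0.0598).

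Tk1, the cytosolic thymidine kinase, which cells make mainly around DNA replication, lay at 174, 183, 165 and 184 CPM in Vehicle and at 133, 163, 154 and 189 CPM in AG636 samples 1 to 4. AG636 sample 1 was the lowest and AG636 sample 4 the highest of all 8. The log2 fold change was −0.15 (SE 0.11, 95% interval −0.38 to 0.08, limma adjusted p = 0.359). Dck, which phosphorylates deoxycytidine and the drug cytarabine, lay at 31.8, 29.5, 36.4 and 41.5 CPM in Vehicle and at 25.2, 29.2, 27.8 and 37.7 CPM in AG636. Sample 4 was the highest of its group in each case, and the groups overlapped. The log2 fold change was −0.21 (SE 0.15, 95% interval −0.55 to 0.12, limma adjusted p = 0.371).

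Slc29a1, the more abundant of both plasma-membrane transporters, lay at 124, 137, 123 and 151 CPM in Vehicle and at 109, 138, 115 and 133 CPM in AG636 samples 1 to 4. The groups overlapped widely, with a log2 fold change of −0.11 (SE 0.10, 95% interval −0.34 to 0.12, limma adjusted p = 0.513), which became 0.0024 without Vehicle sample 4 and AG636 sample 3. Slc29a2 had 20, 13, 15 and 15 counts in Vehicle and 5, 9, 16 and 11 counts in AG636. Its log2 fold change was −0.66 with an SE of 0.36 (95% interval −1.46 to 0.13, limma adjusted p = 0.242). No change was called at this depth, and the interval held large falls but only small rises.

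**Figure D3:**
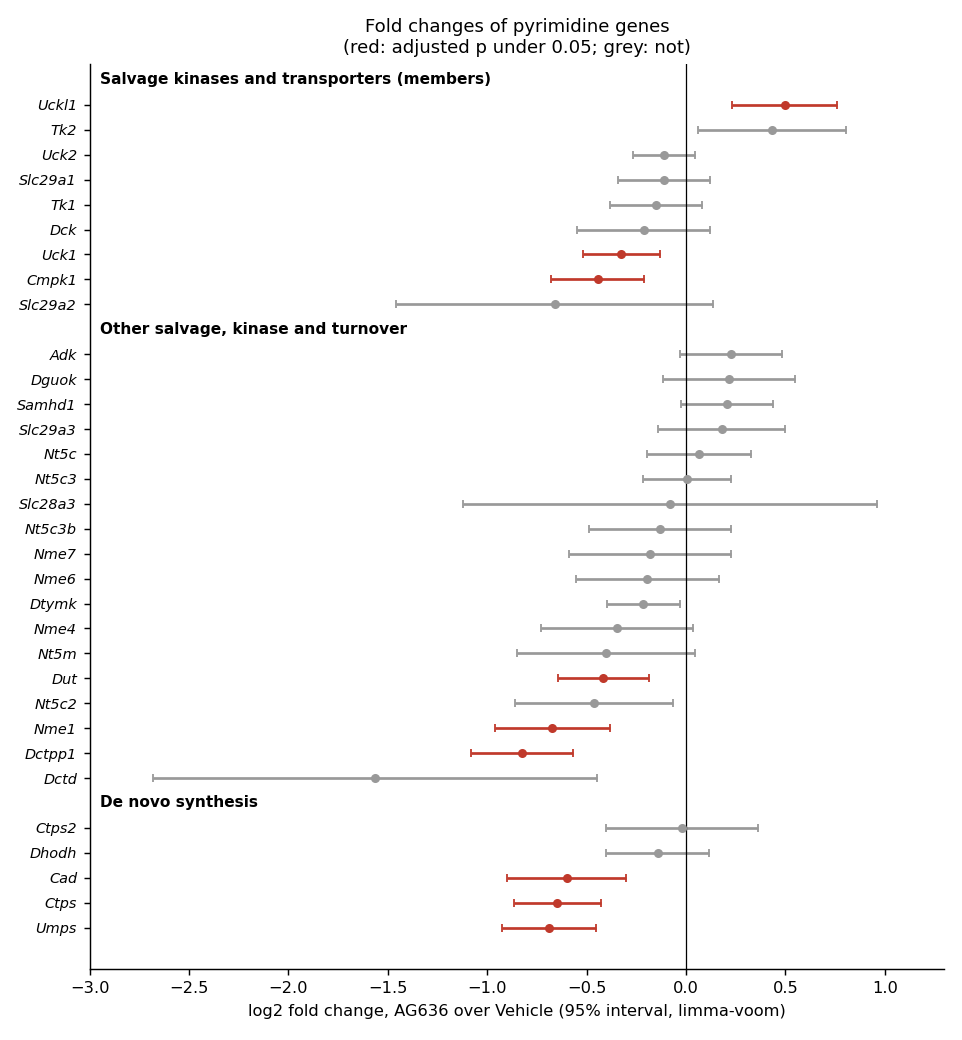
Log2 fold change of AG636 over Vehicle (horizontal axis, with the 95% interval of limma-voom, 4 samples per group) for the 9 tested salvage and transport genes, 18 other genes of nucleotide salvage and turnover, and 5 genes of de novo synthesis. Red marks genes with an adjusted p-value under 0.05. The called genes are Uckl1, Uck1, Cmpk1, Dut, Nme1, Dctpp1, Cad, Ctps and Umps, and of these Uckl1 is the only gene to the right of 0.

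Because shares of counts within a gene family do not depend on library scaling, the relative use of related genes was also compared. Uck2 took 74.7, 72.7, 73.8 and 74.0% of the Uck1 and Uck2 counts in Vehicle samples 1 to 4, and 75.5, 77.9, 76.8 and 76.1% in AG636. The share was higher in every AG636 sample, with means of 73.8 ± 0.826% and 76.6 ± 1.02% (SD, n = 4), a difference of 2.80 percentage points. The two-sided exact permutation p was 0.0286, the smallest that 70 relabellings can give, and the adjusted p was 0.0857 over 3 shares, so it did not pass the correction. A single share at that smallest p cannot pass a correction over 3 tests, so the adjusted p says nothing of its stability. The exact permutation p was 0.0286 again with any 1 sample left out, also the smallest possible.

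Tk1 took 84.0 to 88.4% of the Tk1 and Tk2 counts in Vehicle, and 74.9, 76.8, 83.3 and 85.6% in AG636 samples 1 to 4. AG636 samples 1 and 2 were low and samples 3 and 4 were within or near the Vehicle range. The means were 86.1 ± 1.78% and 80.2 ± 5.13% (SD, n = 4; exact permutation p = 0.0571, adjusted p = 0.0857), and the exact permutation p was 0.0286 without AG636 sample 4 (adjusted p = 0.0429, from 0.0429 to 0.257 over the alternatives). Slc29a1 took 97.7 to 98.6% of the counts of both transporters in Vehicle and 97.8 to 99.3% in AG636 (exact permutation p = 0.229, adjusted p = 0.229), and the exact permutation p was 0.0286 without AG636 sample 3 (adjusted p = 0.0429, from 0.0429 to 0.486 over the alternatives).

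Although single genes changed, the sum of the kinase genes Uck1 and Uck2 and their relative Uckl1 did not separate the groups. In this sum the higher Uckl1 values of AG636 offset its lower values of Uck1 and of Uck2, which was not called. Uck1, Uck2 and Uckl1 together lay at 227 to 241 CPM in Vehicle and at 219 to 234 CPM in AG636 (234 ± 6.97 and 228 ± 6.61 CPM, SD, n = 4). Within that sum Uckl1 took 15.8, 15.8, 16.4 and 14.2% in Vehicle and 23.8, 25.4, 22.3 and 19.1% in AG636 samples 1 to 4. This share was computed after the levels had been seen and was not tested. The 10 salvage and transport genes together summed to 672 ± 22.2 CPM in Vehicle and 628 ± 31.7 CPM in AG636, also a description only.

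**Figure D4:**
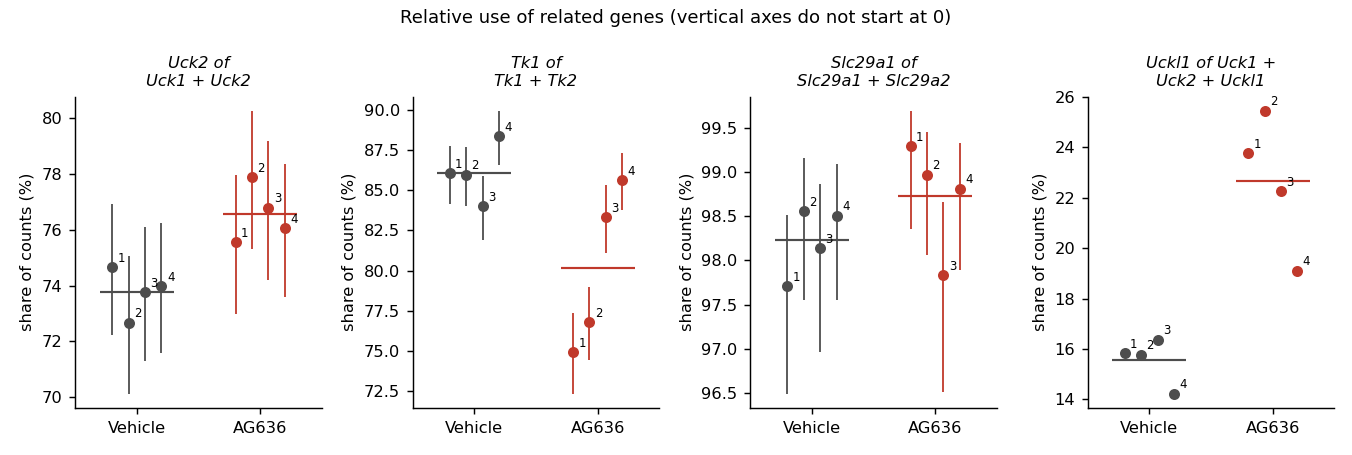
Share of counts taken by a gene within its family (vertical axes in percent, not starting at 0) in each Vehicle and AG636 sample, labelled with its replicate number. Horizontal lines are group means, and vertical lines in the left 3 panels are 95% Wilson intervals, which cover counting error only. The Uck2 share lies between 72.7 and 74.7% in Vehicle and between 75.5 and 77.9% in AG636, and the Uckl1 share in the right panel shows a wider gap.

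The wider pathway was then examined with 34 further genes of nucleotide salvage, phosphorylation and breakdown and 5 genes of de novo synthesis. Both lists were chosen with earlier results of these data known. Of the 34, 18 were tested, and 6 of the 18 had an unadjusted limma p under 0.05, against 3351 of the 10911 tested genes. Limma called 3 lower and 0 higher (16.7%, against 14.0% of all tested genes). The 3 were Dctpp1, a pyrophosphatase of deoxycytidine triphosphate (145 ± 9.97 to 82.1 ± 13.7 CPM, log2 fold change −0.83, limma adjusted p = 0.00262), Nme1, a nucleoside diphosphate kinase (−0.67, adjusted p = 0.00946), and Dut, which hydrolyses dUTP (−0.42, adjusted p = 0.0255). Nme1 lies beside the closely similar Nme2, which had 2 counts in all, so how reads were divided between them is uncertain. Dut lost its call with library size alone (0.0644), without Vehicle sample 3 (0.0650) or 4 (0.0658), and without Vehicle sample 4 and AG636 sample 3 together (0.0824). Dctd, the deoxycytidylate deaminase, is named after its values were seen: its log2 fold change of −1.57 rested on 121 and 48 counts per group and did not pass (limma adjusted p = 0.0628), although its groups did not overlap and it was called lower by DESeq2 and by limma without AG636 sample 3.

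Not all of the wider pathway was detected at a level that could be tested. Of the 34 genes, 16 did not pass the filter, and 7 of these had 0 counts in every sample. The 7 were the phosphorylases Tymp and Upp2, the uracil-degrading enzymes Dpyd and Dpys, the nucleotidases Nt5c1a and Nt5c1b, and the concentrative transporter Slc28a1. Cytidine deaminase, Cda, had 4 counts in Vehicle and 0 in AG636. In contrast, the pyrimidine nucleotidase Nt5c3 was at 404 ± 22.8 CPM in Vehicle and 407 ± 55.2 CPM in AG636 (limma adjusted p = 0.986), named after its values were seen. Together with Upp1, no uridine or thymidine phosphorylase was detected at this depth.

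Of the 5 genes of de novo synthesis, 3 were called lower (60.0%, against 8.49% of all tested genes): Umps, which makes UMP (log2 fold change −0.69, limma adjusted p = 0.00411), Ctps, which makes CTP (−0.65, adjusted p = 0.00393), and Cad, which performs the opening steps (−0.60, adjusted p = 0.0166). Dhodh, the gene of the inhibited enzyme, was at −0.14 (limma adjusted p = 0.442) and Ctps2 at −0.02. The summed level of the 5 genes was 284 ± 8.17 CPM in Vehicle and 200 ± 21.0 CPM in AG636 (SD, n = 4), and the ranges of 275 to 293 and 179 to 226 CPM did not overlap. These 3 calls held in all 17 alternatives. Whether the de novo and the salvage genes differed in their response was not tested.

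Markers of several cell types were set beside these results, because in a bulk sample a change in cell mixture and a change per cell cannot be told apart. The progenitor list holds Kit, for which the cells were sorted, and is not a list of other cells. B cell markers (6 genes, all detected) summed to 14.0 to 34.7 CPM in Vehicle and 21.9 to 105 CPM in AG636. AG636 sample 1 was at 105 and sample 4 at 75.02 CPM, of which Ighm alone gave 93.6 and 57.2 CPM. Of 5 tested B cell markers, 1 was called, higher, against 5.47% of all tested genes. It was Cd79a, with at most 22 counts in a sample. Erythroid markers (9 genes, all tested) summed to 4758 to 8959 CPM in Vehicle, with the lowest value in Vehicle sample 4, and to 7806 to 9435 CPM in AG636. Of these, 1 was called, higher, against 5.47% of all tested genes. This was Hbb-bt (log2 fold change 0.90, limma adjusted p = 0.0238), higher in every AG636 sample than in any Vehicle sample. In Vehicle, Car1 (2427 to 2818 CPM) and Klf1 (167 to 183 CPM) varied little, whereas Hbb-bs ran from 1022 to 3708 CPM. Which cells gave the erythroid transcripts was not tested. Mature myeloid markers (12 genes, 8 tested, 0 called) summed to 97.3 to 152 CPM in Vehicle and 52.4 to 254 CPM in AG636. T and NK cell markers (9 genes, 1 tested, 0 called) summed to 2.89 to 9.47 and 5.27 to 20.1 CPM. The highest of these sums, in AG636 sample 3, was mostly Nkg7 at 17.7 CPM. Platelet markers (5 genes, 2 tested, 0 called, Gp1bb at 0) summed to 12.02 to 18.1 and 13.1 to 61.0 CPM. Progenitor markers (6 genes, 5 tested, 0 called) summed to 917 to 1098 and 1053 to 1261 CPM. At an unadjusted limma p under 0.05, 3351 of the 10911 tested genes and 4 of the 9 salvage genes passed. The part of cell mixture in the changes of Cmpk1, Uck1 and Uckl1 was not tested.

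Positions of the genes bear on how far their counts are their own. Cmpk1 (ENSMUSG00000028719, chromosome 4, 114959336 to 114987241, − strand, GRCm38) overlapped no other gene. Uck1 (ENSMUSG00000002550, chromosome 2, 32255002 to 32260159, − strand) shared 4 exonic bases at its 3′ end with Pomt1 on the other strand, and Pomt1 itself was at −0.08 on the log2 scale in limma (adjusted p = 0.646). Uckl1 (ENSMUSG00000089917, chromosome 2, 181569149 to 181584892, − strand) shared 67 exonic bases with Zfp512b on the same strand, at least 15677 bases from its 3′ end, and Zfp512b was at 0.12 (limma adjusted p = 0.731). Uckl1 also shared 459 exonic bases with Uckl1os on the other strand, at least 9398 bases from its 3′ end. Uckl1os had 8 counts over all samples. Of runs of 75 bases in their annotated transcripts, 350 of Uck1 were also found in Gm4482, 11 of Cmpk1 in Gm5867 and 33 of Tk1 in Gm6091, each of which had 0 counts, and no run was shared between the 10 genes.

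The promoters of the 3 called genes are shown because no other salvage or transport gene among the 10 passed the threshold. Whether the 3 differed from the others was not tested. All 10 genes matched the RefSeq table, and for Uck1 and Uckl1, which have 2 start sites each, the first listed is shown. Each window runs from 250 bases before to 50 after a RefSeq start site (GRCm38.p6) on the − strand, Uck1 at chr2:32260056-32260355, Uckl1 at chr2:181581933-181582232 and Cmpk1 at chr4:114987179-114987478. Capitals mark matches on either strand to any of 6 motifs that were searched: CACGTG (E-box, in 7.15% of all 32851 windows of this length), AANATGGC (a YY1-type motif, 6.05%), CCAAT (37.4%), TTTCCCGC (1.07%) and TTTGGCGC (0.51%), both of E2F type, and GGGCGG (the GC box, 35.7%). No motif holds another.
Uck1: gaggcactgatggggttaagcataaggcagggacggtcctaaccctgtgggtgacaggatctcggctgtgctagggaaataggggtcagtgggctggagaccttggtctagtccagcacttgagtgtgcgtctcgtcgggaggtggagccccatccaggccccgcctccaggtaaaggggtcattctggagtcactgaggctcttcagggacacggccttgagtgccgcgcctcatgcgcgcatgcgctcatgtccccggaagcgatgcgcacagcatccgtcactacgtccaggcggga
Uckl1: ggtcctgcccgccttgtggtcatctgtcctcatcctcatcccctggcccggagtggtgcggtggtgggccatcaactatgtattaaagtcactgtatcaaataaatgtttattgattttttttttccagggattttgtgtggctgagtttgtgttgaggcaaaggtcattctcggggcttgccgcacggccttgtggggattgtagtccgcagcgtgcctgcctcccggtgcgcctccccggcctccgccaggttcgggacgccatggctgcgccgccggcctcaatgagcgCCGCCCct
Cmpk1: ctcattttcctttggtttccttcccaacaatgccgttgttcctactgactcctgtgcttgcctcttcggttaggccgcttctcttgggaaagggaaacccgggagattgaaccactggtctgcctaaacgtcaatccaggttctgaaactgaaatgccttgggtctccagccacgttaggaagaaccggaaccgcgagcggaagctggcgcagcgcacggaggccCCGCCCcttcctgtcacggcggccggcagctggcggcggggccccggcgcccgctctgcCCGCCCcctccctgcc
Uck1 held none of the 6 motifs, Uckl1 held 1 GC box 43 bases after the start, and Cmpk1 held 2 GC boxes, 25 bases before and 35 after it. For comparison, the window of Uck2 held 4 GC boxes and 1 CCAAT box. The window of Dck held 6 GC boxes, that of Tk2 held 2 and that of Tk1 held 1. No window of any of the 10 genes held a YY1-type or an E2F-type match. The only E-box was in 1 of the 8 windows of Slc29a1, so the 3 called genes held none either. This says only that these letters are not in these windows.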

How the data were processed

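RNA from sorted RUNX1-RUNX1T1 AML cells was profiled with a QuantSeq 3′ mRNA kit. The deposited values were raw read counts per gene. The authors removed low-quality reads, trimmed primer-derived and poly-A bases with cutadapt, mapped reads to mm10 with HISAT2 and made the counts with featureCounts from Subread. The submitters' processing notes name cutadapt 1.9.1, HISAT2 2.0.4 and Subread 1.5.0-p3. Strand and multi-mapping settings were not given in the sources used here, so overlapping and near-identical genes are uncertain. The deposited gene length was not used for levels.

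Samples were grouped by title. Symbols came from a GENCODE table, which left 115 of 54838 genes unnamed, and 9 of the 10 members had the same start and end in GENCODE M21 (Slc29a2 did not). Depth was 6120030 to 7162036 counts per sample. No replicate pair agreed within sampling noise (chi-square per degree of freedom at least 3.87). Genes were kept by filterByExpr (minimum count 10), scaled by TMM and compared with voom weights in limma 3.58.1 (limma-voom; R 4.3.3 with edgeR 4.0.16), two-sided, with group as the only term, as the study names limma. P-values were adjusted by Benjamini-Hochberg over all 10911 genes tested, at 0.05. Shares were compared by two-sided exact permutation over 70 relabellings. The fit was tested on simulated data. Alternatives were edgeR's quasi-likelihood test, DESeq2 (1.42.0), RLE factors, library size alone, no filter, at least 10 counts per library, library sizes free of mitochondrial genes, a replicate block, each sample left out, and Vehicle sample 4 with AG636 sample 3 left out.

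The members and gene lists were chosen with earlier results of these data known. Genes named were the 10 members, the genes of the 2 pathway lists that passed the threshold, and the 3 genes (average log2 CPM of at least 5) most like the member with the smallest p-value. Others were named as the drug target, paralogs, markers, overlapping genes or genes listed at few or 0 counts, or after their values were seen. Replicate numbers came from the titles, and no source says that they mark a shared mouse or batch.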

Additional observations from a re-analysis of the deposited data

Results flagged for a closer look

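For the 9 detected salvage and transport genes and the 3 family shares, each sample was compared with the rest of its group by Dixon's ratio, 24 combinations of a measure and a group in all. In 0 of them did a sample lie beyond the 95% critical value, where chance gives about 1.2.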

How the results depend on the processing

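Depth limits what can be said of Slc29a2 and Upp1. The count of salvage genes called was 3, and lay between 2 and 3 in the 9 settings that kept all samples or left out Vehicle sample 4 and AG636 sample 3. Leaving out single samples gave 0 to 3 salvage genes, 688 to 1706 genes over the whole table (1523 with all samples) and 5 to 7 other pyrimidine genes (6 with all samples). The 0 came without Vehicle sample 1 or 3 by limma, where 798 and 688 genes were called over all. The Uck2 share then differed by 2.37 to 3.15 points, the Tk1 share by −7.76 to −4.19 points and the Slc29a1 share by 0.31 to 0.80 points, against 2.80, −5.93 and 0.50 with all samples. The sign of each salvage gene's log2 fold change was the same in all alternatives with the exception of Slc29a1, at 0.0024 without Vehicle sample 4 and AG636 sample 3. The cause was not tested. Slc29a2 could not be fitted with a minimum of 10 counts in every sample. With the replicate block, 1446 genes and 2 salvage genes were called, Uck1 being lost (limma adjusted p = 0.0627). Deviations of same-numbered samples correlated at −0.14, 0.01, 0.20 and 0.14 (r across genes), and Vehicle sample 1 correlated best with AG636 sample 3 (0.18), so the numbers were not taken to pair the samples. Library size alone moved the median log2 fold change of all genes by 0.07 and turned the split of calls from 597 higher and 926 lower to 918 and 571.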

Other observations

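Genes of DNA replication, with which Tk1 is usually made, had negative log2 fold changes with TMM factors, although Gins3 at −0.0023 was unchanged. This list too was chosen with earlier results of these data known. Of 22 S phase genes, all tested, 22 had negative and 0 positive log2 fold changes, against 5521 negative among the 10911 tested genes. Limma called 9 of the 22 lower (40.9%, against 8.49% of all tested genes in that direction), and the median was −0.34. Cdt1, which licenses origins, was at −0.71 (limma adjusted p = 0.00214) and Tyms, which makes thymidylate by the route parallel to thymidine salvage, at −0.59 (adjusted p = 0.0160), both named after their values were seen. Tk1 at −0.15 was not called, and whether it differed from the list was not tested.

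Among 5261 tested genes whose average log2 CPM reached 5, those whose deviations from the group means were most like the deviations of Cmpk1 over the 8 samples were Ulk2 (Pearson r = 0.98), Abhd2 (0.96) and Snrpf (0.96). This is a description of 8 points that share their libraries. The log2 fold changes of these genes were 0.24, 0.02 and −0.78, and only that of Snrpf was called (limma adjusted p = 0.00453).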
